A study of Mus musculus with 8 samples.

Results

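The genes described here encode subunits of the proteasome, its activators, its inhibitor and the chaperones that build it. They were taken by name, as every non-control probe whose gene name in the scanner files begins with Psma to Psmg and a digit, without the interferon-inducible subunits Psmb8, Psmb9 and Psmb10. This gave 58 of the 55681 probes on the array and 46 of its 36406 gene names. Of these, 55 probes of 44 genes were bright enough to test. The name rule also took Psmc3ip, a meiotic recombination factor named for its binding to Psmc3, which is no subunit and is counted in neither particle.

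The samples were 8 single-colour arrays of mouse embryonic stem cells at day 6 of neural induction, which the labels call RGC-like NPC. In 4 samples, labelled Control d6, the cells carried shCtrl, a control short hairpin RNA. In the other 4, labelled KD d6, they carried shZrf1, a hairpin against Zrf1, the gene now named Dnajc2. Both groups followed the same induction protocol, and whether each hairpin line was 1 clone or a pool is not given in the sources used here. The series asks what the loss of Zrf1, a ribosome-associated chaperone that also binds ubiquitylated chromatin, does to the identity of neural progenitors. The scanner files give 1 number to knockdown 1 and 2 and another to knockdown 3 and 4, and whether these pairs are repeat arrays of 1 RNA is not given. The p-values therefore measure the spread between these arrays, part of which may be technical, and calls that do not hold with each pair averaged are named beside the result.

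The proteasome is the main protease of the cytosol and nucleus. Its core particle is a barrel of alpha rings, which gate the entrance, around beta rings, 3 of whose subunits cut peptide bonds. The regulatory particle caps the barrel. Its base holds a ring of 6 ATPases that unfold the substrate and push it into the barrel, and its lid holds the enzyme that strips ubiquitin off. Dedicated chaperones build both particles, and the transcription factor Nfe2l1 is known to raise the subunit genes together when proteasome activity falls.

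Signals are given on a log2 scale on which 0 stands for an array's own 75th percentile. Differences are knockdown minus control in log2 units, with the standard error (SE) of limma's fit and its adjusted p. A gene was called at a limma adjusted p under 0.05 over all 29091 tested probes. Where a gene had several tested probes, the brightest stood for it. The signal of a probe depends on its sequence, so levels of different genes are not compared. In these bulk samples fewer cells of a type and less RNA per cell cannot be told apart.

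Between 53.4% and 60.3% of the 59305 spots of an array were well above background, and none was saturated. The targeted gene, Dnajc2, lay between 1.94 and 2.22 in control arrays and between -2.35 and -1.9 in knockdown arrays, a difference of -4.22 (SE 0.12), or 18.6-fold lower (limma adjusted p = 1.36e-07). Across the array 57.3% of the 21753 tested genes were called, 27.8% higher and 29.5% lower, with a median difference of 0.02. Cell type markers moved as well. Of 8 neural progenitor markers 7 were lower (Pax6 was not called, and Fabp7 passed the background test on 0 of 4 knockdown arrays), and their summed signal lay between 113 and 125 in control and between 26.8 and 28.7 in knockdown arrays, in multiples of the 75th percentile signal. All 6 endoderm markers were higher by their brightest probe, with summed signals of 1.82 to 2.26 and of 9.24 to 10.2, and Afp passed the background test on 0 of 4 control arrays. Sox17 (0.52) and Foxa2 (0.29) rose least of them, and each had another probe that was not called. Of 5 markers of pluripotent cells 3 were lower and 1 higher (sums of 61.4 to 68.1 and 22.1 to 24.4), of 4 neuronal markers 3 were lower and 1 higher (6.6 to 8.11 and 9.43 to 10.7, a sum that rose with Stmn2, the marker that was higher), and of 4 fibroblast or feeder markers 3 were higher (35.2 to 38.6 and 116 to 145, mostly the signal of Tagln). Nanog, a marker of pluripotent cells, and the neuronal marker Map2 were lower by their brighter probe, and another probe of each was not called. Such a sum weights each marker by the brightness of its probe. The part of these shifts in cell type markers in the proteasome results was not tested.

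Most proteasome genes were lower in the knockdown cells, by modest amounts. Of the 44 tested genes 27 were called lower, 2 were called higher and 15 were not called, so that 61.4% were lower against 29.5% of all tested genes and 4.55% were higher against 27.8%. Their median difference was -0.30, and the range ran from -1.01 for the ATPase gene Psmc5 to 0.64 for the lid gene Psmd8. Only Psmc5, 2.01-fold lower, passed a 2-fold change, which 7.86% of all tested genes passed downwards and 9.89% upwards. The 4 control and 4 knockdown arrays did not overlap for 29 of the 44 tested genes, which were the called genes. The knockdown was higher for 2 of them (4.55% of the 44) and lower for 27 (61.4%). Over all tested genes groups without overlap were found for 54.9%, 26.5% with the knockdown higher and 28.3% with it lower. Without overlap the sign of a gene on each of the 3 slides is fixed, so the slides add no support here.

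**Figure D1:**
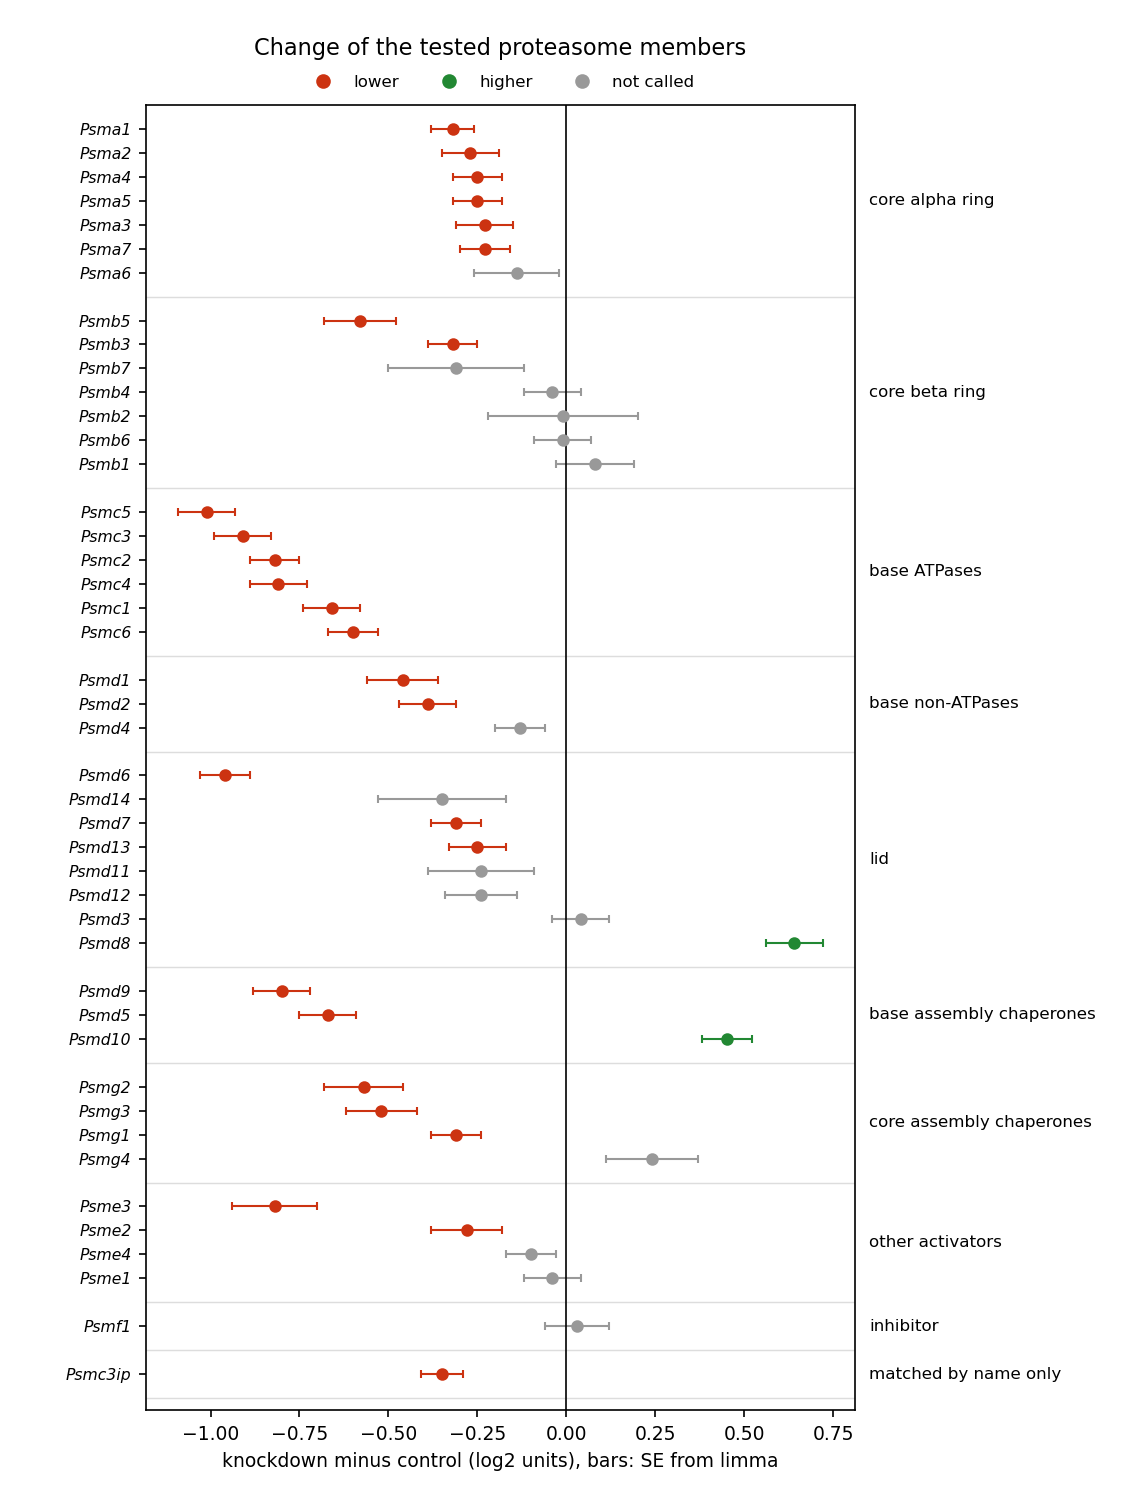
Difference between knockdown and control (log2 units, horizontal axis) for the 44 tested proteasome genes, grouped by role, with points coloured by the limma call at an adjusted p under 0.05 and bars showing the SE. All 6 base ATPases lie between -1.01 and -0.6, the called alpha subunits lie between -0.32 and -0.23, and Psmd8 and, by its brighter probe, Psmd10 are the called genes to the right of 0.

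With each knockdown pair averaged to 1 sample, 22 of the 29 genes were still called, 20 lower and 2 higher. The 7 that were not called were 5 alpha subunits, Psmd13 and Psme2. The choice of scaling shifted all genes together. The median difference of all tested genes was 0.02 here, -0.12 with arrays scaled on their median and 0.15 with the 75th percentile taken over probes above background on all 8 arrays, and the share of called genes that were higher was 48.5%, 37.7% and 59.1%. Relative to the median of all genes the proteasome genes lay at -0.31 under each of these scalings. Each of them shifts a whole array by 1 value, so this distance cannot differ between them. It was -0.19 after quantile normalization, -0.2 with normexp and quantile normalization and -0.21 with the authors' deposited values.

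The ATPases of the base were lower throughout. All 6 genes, Psmc1 to Psmc6, were called lower, with a median difference of -0.81. All 9 of their probes were called lower, where 56.8% of all tested probes were called and 29% were lower. The probes of Psmc2 overlap in position, so they are not separate readings of that gene. Psmc5 measured 5.08, 5.09, 5.18 and 5.03 on control arrays 1 to 4 and 4.19, 4.19, 4.01 and 3.96 on knockdown arrays 1 to 4. Every control array lay at least as high as 5.03 and no knockdown array above 4.19, a difference of -1.01 (SE 0.08, limma adjusted p = 1.31e-05). Its probe lies on chromosome 11 from 106124192 to 106124376 (mm9, the build of the files). Psmc3 measured 7.59, 7.72, 7.72 and 7.64 in control and 6.9, 6.62, 6.71 and 6.79 in knockdown arrays, a difference of -0.91 (SE 0.08, limma adjusted p = 2.34e-05). Its other probe differed by -0.99, so both probes gave a fall of nearly the same size.

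Psmc2 measured 6.34, 6.42, 6.53 and 6.49 in control and 5.74, 5.61, 5.56 and 5.6 in knockdown arrays (-0.82, SE 0.07, limma adjusted p = 2.9e-05). Psmc4 measured 5.56, 5.58, 5.44 and 5.41 in control and 4.79, 4.67, 4.56 and 4.74 in knockdown arrays (-0.81, SE 0.08, limma adjusted p = 4.32e-05). In both genes the groups were separated by more than the whole spread within either of them. Psmc1, whose product is known to help open the gate of the core, measured 7.08, 7.09, 6.94 and 6.98 in control and 6.48, 6.24, 6.28 and 6.45 in knockdown arrays (-0.66, SE 0.08, limma adjusted p = 0.00017). Psmc6 measured 3.81, 3.88, 3.99 and 3.85 in control and 3.37, 3.24, 3.34 and 3.19 in knockdown arrays, the smallest fall of the 6 (-0.60, SE 0.07, limma adjusted p = 0.00016). All 6 stayed called lower under all 22 alternatives with a test, with medians from -0.95 to -0.68.

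**Figure D2:**
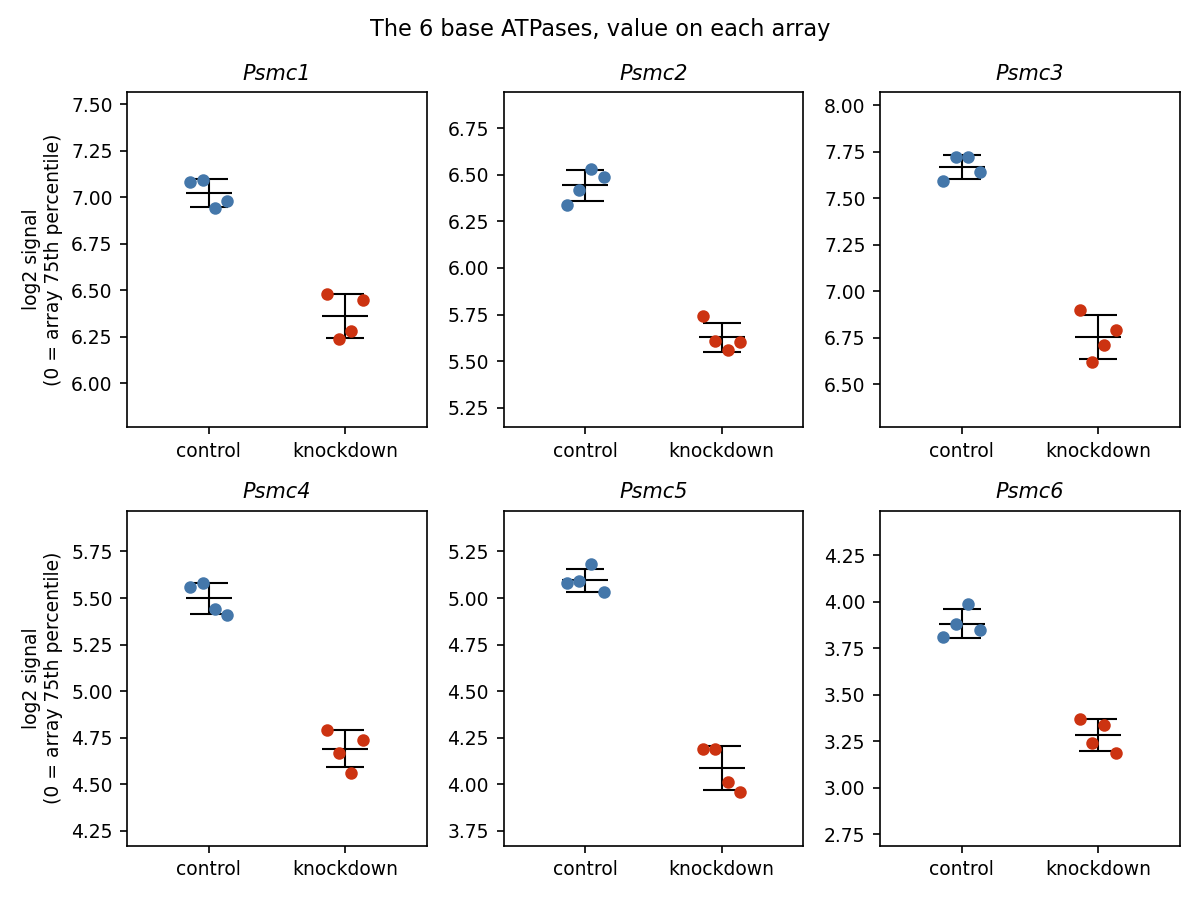
Log2 signal of the 6 base ATPase genes (vertical axes, each spanning the same 1.8 log2 units) on the 4 control and 4 knockdown arrays. Points are arrays, and the bars give mean and SD. In every panel the 4 knockdown arrays lie below the 4 control arrays.

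Since these genes fell together, the letters before their start sites are shown. The promoter windows, from RefSeq on build GRCm38.p6, run from 250 bases before to 50 bases after the first annotated start of a gene. A window was found for 38 of the 46 genes, Psmc3 not among them. Capitals mark matches on either strand to CCAAT, the box bound by NF-Y, and to TGANNNNGC, the core letters of the antioxidant response element to which Nfe2l1 and Nfe2l2 bind. The first 5 windows are those of ATPase genes that fell, Psmb5 and Psmb6 are catalytic genes of which the first fell and the second was not called, and Psmd8 is the lid gene that rose. Psmc1 lies at chr12:100109952-100110251 (+), Psmc2 at chr5:21785025-21785324 (+), Psmc4 at chr7:28050043-28050342 (-), Psmc5 at chr11:106255935-106256234 (+), Psmc6 at chr14:45329574-45329873 (+), Psmb5 at chr14:54617946-54618245 (-), Psmb6 at chr11:70525107-70525406 (+) and Psmd8 at chr7:29180624-29180923 (-).
Psmc1: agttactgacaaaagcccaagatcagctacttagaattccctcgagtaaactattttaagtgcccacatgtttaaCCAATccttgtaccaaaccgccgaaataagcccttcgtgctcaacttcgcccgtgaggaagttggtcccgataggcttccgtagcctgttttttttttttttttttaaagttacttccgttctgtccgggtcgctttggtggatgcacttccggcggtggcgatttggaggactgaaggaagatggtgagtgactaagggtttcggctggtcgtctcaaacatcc
Psmc2: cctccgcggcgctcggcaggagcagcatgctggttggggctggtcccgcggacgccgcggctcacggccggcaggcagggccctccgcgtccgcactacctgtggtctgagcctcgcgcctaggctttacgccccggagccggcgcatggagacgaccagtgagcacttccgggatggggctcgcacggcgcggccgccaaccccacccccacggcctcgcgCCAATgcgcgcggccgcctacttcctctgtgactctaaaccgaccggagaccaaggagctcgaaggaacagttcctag
Psmc4: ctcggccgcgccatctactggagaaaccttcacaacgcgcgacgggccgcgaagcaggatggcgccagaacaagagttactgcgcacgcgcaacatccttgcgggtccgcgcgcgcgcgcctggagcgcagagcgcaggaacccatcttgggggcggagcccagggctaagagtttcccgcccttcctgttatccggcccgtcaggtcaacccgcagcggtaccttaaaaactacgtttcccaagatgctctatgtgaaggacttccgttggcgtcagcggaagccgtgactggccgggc
Psmc5: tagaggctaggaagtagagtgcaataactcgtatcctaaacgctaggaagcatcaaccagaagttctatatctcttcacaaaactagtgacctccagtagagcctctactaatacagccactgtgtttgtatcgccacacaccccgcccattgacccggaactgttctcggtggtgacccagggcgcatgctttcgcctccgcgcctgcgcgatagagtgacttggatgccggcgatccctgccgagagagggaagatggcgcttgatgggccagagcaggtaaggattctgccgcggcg
Psmc6: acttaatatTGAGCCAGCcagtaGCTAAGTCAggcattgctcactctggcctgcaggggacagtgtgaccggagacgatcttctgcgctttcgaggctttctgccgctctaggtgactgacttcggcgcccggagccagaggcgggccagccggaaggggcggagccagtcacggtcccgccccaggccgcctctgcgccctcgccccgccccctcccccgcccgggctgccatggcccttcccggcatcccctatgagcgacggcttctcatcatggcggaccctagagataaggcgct
Psmb5: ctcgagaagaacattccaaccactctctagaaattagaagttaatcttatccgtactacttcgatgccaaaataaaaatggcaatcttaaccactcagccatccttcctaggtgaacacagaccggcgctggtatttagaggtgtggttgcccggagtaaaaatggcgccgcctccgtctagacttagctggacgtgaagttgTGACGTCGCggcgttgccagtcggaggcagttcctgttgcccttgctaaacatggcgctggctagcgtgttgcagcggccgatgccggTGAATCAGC
Psmb6: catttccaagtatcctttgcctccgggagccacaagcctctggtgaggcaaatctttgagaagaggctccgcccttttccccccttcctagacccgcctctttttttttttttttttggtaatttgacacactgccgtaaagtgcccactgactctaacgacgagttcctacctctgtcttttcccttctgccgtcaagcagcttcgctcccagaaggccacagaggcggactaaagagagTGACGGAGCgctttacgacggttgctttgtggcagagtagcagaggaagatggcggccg
Psmd8: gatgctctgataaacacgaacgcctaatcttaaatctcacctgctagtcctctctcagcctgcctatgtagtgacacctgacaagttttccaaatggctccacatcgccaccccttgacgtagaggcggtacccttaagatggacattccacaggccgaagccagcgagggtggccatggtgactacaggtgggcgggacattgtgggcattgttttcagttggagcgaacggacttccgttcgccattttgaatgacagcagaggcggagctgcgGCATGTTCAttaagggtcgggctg

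No motif stood in all 5 ATPase windows. Psmc1 and Psmc2 each held 1 CCAAT, Psmc6 held 2 TGANNNNGC, and Psmc4 and Psmc5 held neither. Over the first window of all 27025 genes in the table, 37.9% held CCAAT and 41.4% held TGANNNNGC. Among the proteasome genes CCAAT stood in 14 of 38 windows (36.8%) and TGANNNNGC in 21 (55.3%). TGANNNNGC stood in 9 of 12 core windows and in 5 of 14 windows of the regulatory particle. By call it stood in 13 of the 24 windows of genes that were lower (54.2%) and in 6 of the 11 of genes not called (54.5%). Matches of this length are frequent in any window and are a description of letters only.

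The rest of the base fell less. Psmd1 and Psmd2, the large scaffold subunits, of which Psmd2 docks ubiquitin shuttle factors, were lower by -0.46 (SE 0.10) and -0.39 (SE 0.08), at limma adjusted p = 0.00515 and 0.00318. The ubiquitin receptor Psmd4 differed by -0.13 and was not called (limma adjusted p = 0.156). Its control arrays lay between 6.75 and 6.89 and its knockdown arrays between 6.57 and 6.77, so the groups overlapped.

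The lid moved in both directions. Of 8 genes 3 were lower, 1 was higher and 4 were not called, with a median of -0.25. The 37.5% lower lay near the 29.5% of all tested genes. The count of lower lid genes was 1 after quantile normalization, with the 75th percentile over probes above background on all 8 arrays and on slide 2 alone, and 5 with median scaling and without control 3. Psmd6 measured 4.67, 4.71, 4.69 and 4.74 in control and 3.8, 3.85, 3.64 and 3.69 in knockdown arrays, a fall close to that of the ATPases (-0.96, SE 0.07, 1.94-fold, limma adjusted p = 8.14e-06). Psmd8, encoding the subunit known to join the lid last during its assembly, went the other way. It measured 4.38, 4.43, 4.16 and 4.35 in control and 4.95, 4.92, 4.96 and 5.04 in knockdown arrays (0.64, SE 0.08, 1.56-fold, limma adjusted p = 0.000164). All its knockdown arrays lay above all its control arrays, and it stayed called higher under those 22 alternatives. Psmd7, partner of the lid deubiquitinase, and Psmd13 were lower by -0.31 and -0.25. The call of Psmd13 ended with the knockdown pairs averaged (limma adjusted p = 0.0792). Psmd3 differed by 0.04, and Psmd11 and Psmd12 both by -0.24, without a call. Psmd12 had a dimmer probe that was called lower (-0.48).

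The lid deubiquitinase Psmd14, which removes ubiquitin chains as substrates enter, measured 3.74, 4.03, 3.16 and 3.87 in control and 3.22, 3.43, 3.34 and 3.4 in knockdown arrays. Control 3 lay below all 4 knockdown arrays while the other 3 controls lay above them, and the difference of -0.35 (SE 0.18) was not called (limma adjusted p = 0.126). Control 3 stood apart in the same way for other members. It lay over 0.3 below the mean of the other controls for 6 of the 44 genes (Psmb2, Psmb7, Psmd14, Psmd11, Psma6 and Psmb1) and over 0.3 above it for 2, where no other array passed that distance for more than 2 genes. Of all tested genes control 3 lay over 0.3 below for 19.2% and over 0.3 above for 12%, so its distance was not particular to the proteasome genes. Over all tested genes the SD of its distance to the other controls was 0.42, against 0.29 to 0.36 for the other arrays. Without control 3, Psmd14 (-0.53), Psmb7 (-0.50), Psmd11 (-0.39) and Psma6 (-0.25) were called lower (limma adjusted p = 0.00219, 0.00208, 0.00427 and 0.0248), and Psma3 (-0.20) and Psme2 (-0.21) were no longer called, at 0.0602 and 0.051. The count of genes lower was then 29 in place of 27.

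In the core particle the median difference was -0.24. In the alpha ring 6 of 7 tested genes were called lower (85.7%, beside 29.5% of all tested genes). They lay between -0.32 for Psma1 and -0.23 for Psma3 and Psma7. Their limma adjusted p ran from 0.00204 for Psma1 to 0.0305 for Psma3. Psma6 differed by -0.14 and was not called, nor was the dimmer probe of Psma4 (-0.21, limma adjusted p = 0.0914). These small falls were called in some settings and not in others. Of the ring, 1 of the 7 was called lower with the knockdown pairs averaged, 1 with the replicate number as a block, 1 with no filter on dim probes and 1 under the scaling on probes above background on all 8 arrays, where the median of all genes was 0.15. In the same order 5634, 5781, 5729 and 5248 of all tested genes were lower, of 36406 with no filter and of 21753 in the other settings. In those settings the beta ring had 2, 2, 2 and 1 genes lower, so the order of the rings by count depended on the setting, and no test compared them. The alpha count was 3 without knockdown 2 and 3 without knockdown 3. Psma8, the alpha subunit of the testis, was well above background on 1 of the 8 arrays and was not tested.

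In the beta ring 2 of 7 tested genes were lower and 5 were not called, with a median of -0.04. Its share of lower genes, 28.6%, stood next to the 29.5% of all tested genes. The genes of the cutting subunits differed among themselves. Psmb5, the chymotrypsin-like subunit and main target of proteasome inhibitors, measured 7.3, 7.29, 7.44 and 7.29 in control and 6.99, 6.58, 6.66 and 6.76 in knockdown arrays, without overlap (-0.58, SE 0.10, 1.5-fold lower, limma adjusted p = 0.00103). Its dimmer probe differed by -0.71. Psmb6, the caspase-like subunit, measured 7.58, 7.71, 7.77 and 7.71 in control and 7.77, 7.55, 7.69 and 7.72 in knockdown arrays, with the groups lying over each other (-0.01, SE 0.08, limma adjusted p = 0.916). Psmb7, the trypsin-like subunit, measured 5.34, 5.39, 4.54 and 5.24 in control and 4.7, 4.77, 4.82 and 4.98 in knockdown arrays, so 3 controls were higher and control 3 was lower than every knockdown array (-0.31, SE 0.19, limma adjusted p = 0.196). The structural subunit Psmb3 was lower by -0.32 (limma adjusted p = 0.00503), and Psmb1, Psmb2 and Psmb4 differed by 0.08, -0.01 and -0.04. Psmb11, the subunit of the thymus, was well above background on 5 of 8 arrays, not on all of either group, and was not tested.

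The interferon-inducible subunits, which the name rule left out, can replace the cutting subunits in newly built core particles. Psmb9, which takes the place of Psmb6, measured 0.2, 0.02, 0.1 and 0.14 in control and 2.09, 2, 1.96 and 2.14 in knockdown arrays, and rose by 1.93 (SE 0.07, limma adjusted p = 3.68e-07). Psmb8, which takes the place of Psmb5, rose by 1.78 (SE 0.10, limma adjusted p = 2.03e-06), from between -1.81 and -1.47 to between 0.01 and 0.25. Psmb10, the counterpart of Psmb7, fell by 0.45 (limma adjusted p = 0.0021). Of these 3 genes 2 therefore rose over 3-fold while 0 of the 44 tested members rose over 2-fold.

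**Figure D3:**
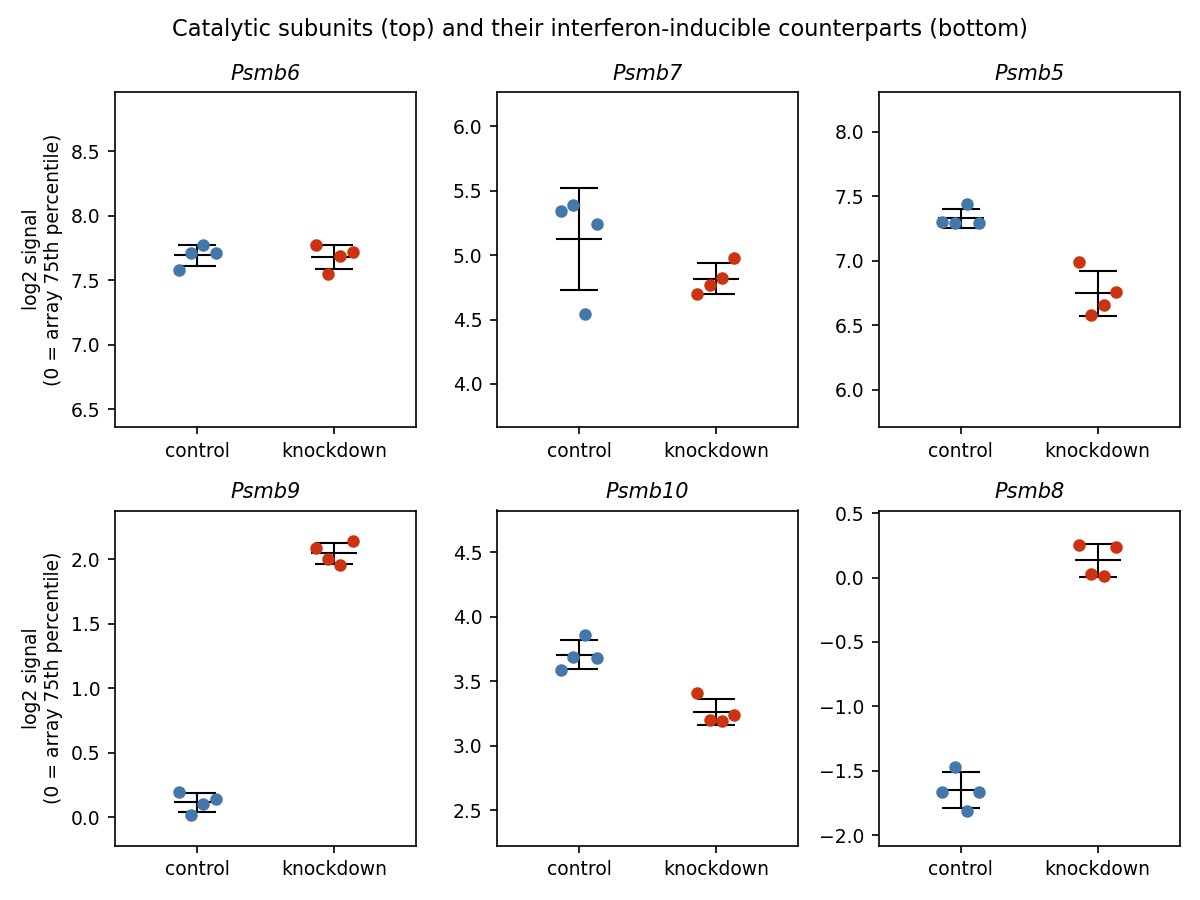
Log2 signal (vertical axes, each spanning the same 2.6 log2 units) of the genes of the cutting subunits Psmb6, Psmb7 and Psmb5 and, below each, of the interferon-inducible counterpart, on 4 control and 4 knockdown arrays with mean and SD. Psmb8 and Psmb9 are higher on every knockdown array, Psmb5 and Psmb10 are lower on every one, and control 3 is the low point of Psmb7.

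Set side by side, 8 of 14 core genes (57.1%) and 11 of 17 genes of the regulatory particle (64.7%) were lower, beside 29.5% of all tested genes. None of the core and 1 of the regulatory genes (5.88%) was higher, beside 27.8% of all tested genes. The medians were -0.24 and -0.39. On the 4 knockdown arrays the median distance from the control mean was -0.19, -0.28, -0.26 and -0.2 for the core and -0.39, -0.32, -0.49 and -0.41 for the regulatory particle. The regulatory median was the lower of the pair on every knockdown array. Within slides 1, 2 and 3 the core median was -0.2, -0.28 and -0.15 and the regulatory median -0.51, -0.35 and -0.38. Slide 1 held only control 2 and knockdown 1, and slide 3 only control 1 and knockdown 4. The slide medians regroup the same arrays and add no replicates. The distance between the particles lay in the ATPases. Without them the other 11 regulatory genes had a median of -0.25, next to -0.24 for the core. Of these 11 genes 5 were lower (45.5%, beside 29.5% of all tested genes). With the knockdown pairs averaged 3 core and 10 regulatory genes were lower, both particles with 1 gene or none higher. Of all 21753 tested genes 5634 were then lower and 5069 higher. No p was computed for a difference between the particles, and the genes were chosen with earlier results known.

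**Figure D4:**
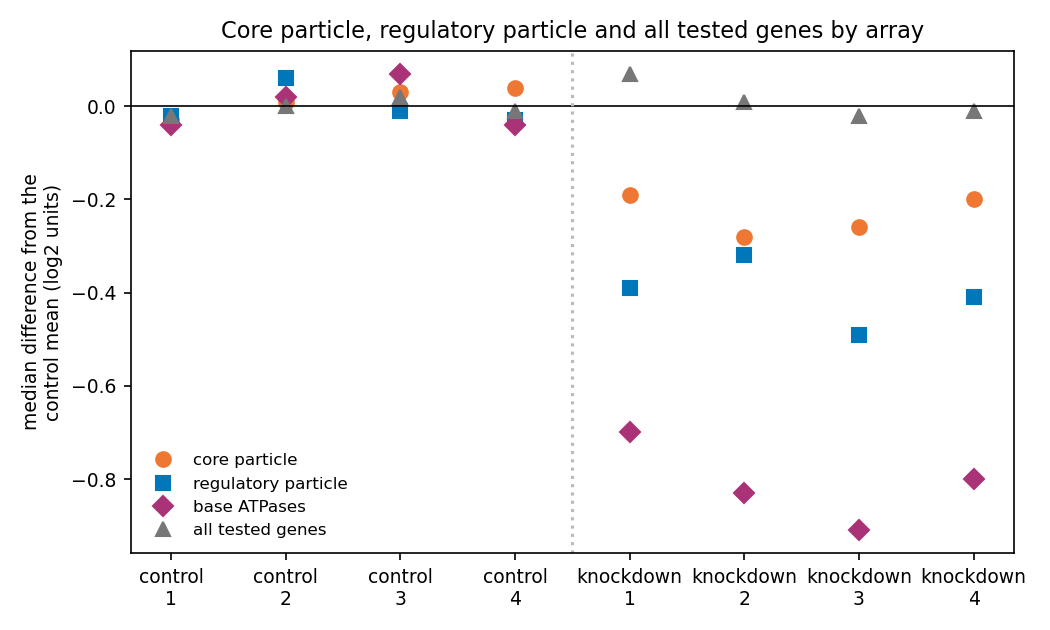
Median difference from the control mean (log2 units, vertical axis) on each array for the core particle (14 genes), the regulatory particle (17 genes), the 6 ATPases within it and all 21753 tested genes. On the knockdown arrays the ATPases lie between -0.91 and -0.7, the regulatory particle between -0.49 and -0.32, the core between -0.28 and -0.19 and all tested genes between -0.02 and 0.07.

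The chaperones that build the proteasome moved in part with it. Of the 3 that assemble the base, Psmd9 was lower by -0.80 (SE 0.08, limma adjusted p = 5.06e-05) with its dimmer probe at -0.84, and Psmd5 by -0.67 (SE 0.08). The third, Psmd10, also known as gankyrin for its part in cancer, had probes that disagreed. Its brighter probe, on chromosome X from 137483840 to 137486736 (mm9), measured 2.12, 2.14, 1.94 and 2.13 in control and 2.57, 2.47, 2.5 and 2.59 in knockdown arrays (0.45, SE 0.07, limma adjusted p = 0.000769). Its dimmer probe, on chromosome X from 137482968 to 137483027, measured -0.11, 0.04, 0.43 and 0.23 in control and -0.35, -0.13, -0.02 and -0.47 in knockdown arrays (-0.39, SE 0.14, limma adjusted p = 0.0457). The first set of arrays did not overlap and the second did, and the mean of both probes differed by 0.03 without a call, so no direction is given for the gene, which the counts above hold as higher by its brighter probe. It was the only one of the 11 genes with several tested probes whose probes were called in opposite directions.

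Of the chaperones that assemble the core, Psmg1 and Psmg2, which act as a pair on the alpha ring, were lower by -0.31 (SE 0.07) and -0.57 (SE 0.11), and Psmg3 by -0.52 (SE 0.10), at limma adjusted p = 0.0072, 0.00251 and 0.00206. The dimmer probe of Psmg1 was not called (-0.25, limma adjusted p = 0.0835). Psmg4 differed by 0.24 and was not called (limma adjusted p = 0.152). Control arrays of Psmg4 lay between 2.51 and 2.92 and knockdown arrays between 2.73 and 3.16, so the groups overlapped. It was called higher in 4 of the 22 alternatives, by 0.37 after quantile normalization, 0.37 with normexp and quantile normalization, 0.37 with the 75th percentile over probes above background on all 8 arrays and 0.40 with the authors' values.

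Among the activators other than the regulatory particle, Psme3, which forms a nuclear cap that acts without ATP, fell most. It measured 2.69, 2.86, 2.83 and 2.84 in control and 1.76, 2, 2.31 and 1.88 in knockdown arrays, so its knockdown arrays were lower and more spread (-0.82, SE 0.12, 1.76-fold, limma adjusted p = 0.000495). Psme1 and Psme2 form the interferon-inducible cap together. Psme1 differed by -0.04 without a call, and Psme2 was lower by -0.28 (limma adjusted p = 0.035), a call that ended with the pairs averaged (limma adjusted p = 0.117), and its dimmer tested probe was not called (-0.32, limma adjusted p = 0.0686). Psme4, the other nuclear activator, and the inhibitor Psmf1 differed by -0.10 and 0.03 and were not called. Psmc3ip was lower by -0.35.

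Genes that work beside the proteasome but carry other names were taken from a list of 39, of which 37 were tested. Of these 8 were higher, 16 were lower and 13 were not called, where 27.8% of all tested genes were higher and 29.5% lower. All 5 shuttle factors, which carry ubiquitylated proteins to it, were lower, from -0.40 for Ubqln1 to -0.71 for Ubqln4, and Rad23b fell by 0.68. The call of Ubqln4, whose groups overlapped, held in 15 of 17 settings, that of Ubqln1 in 16 and those of the other 3 in 17. With the knockdown pairs averaged neither Ubqln4 (limma adjusted p = 0.0579) nor Ubqln1 (0.0598) was called. Of 7 genes of the segregase, which pulls proteins out of complexes and membranes, 5 were lower and 2 higher. Vcp, its ATPase, went from 6.48 ± 0.03 to 5.5 ± 0.06 (SD, n = 4), a difference of -0.98 (limma adjusted p = 3.68e-06). Its cofactors Ufd1, Nploc4 and Nsfl1c fell by 0.56, 0.57 and 0.71. The call of another cofactor, Ubxn1 (-0.28), held in 11 of 17 settings and ended with the pairs averaged (limma adjusted p = 0.064). Faf1 and Faf2 were called higher with their brighter probes (0.26 and 0.77) and lower with another probe each, so no direction is given for either gene. The higher call of Faf1 held in 8 of 17 settings and ended with the pairs averaged (limma adjusted p = 0.135).

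Further subunits split. The ubiquitin receptor Adrm1 and the proteasome-binding scaffold Ecpas were lower by -0.52 and -0.67, while the small lid subunit Sem1 (-0.01) and the core maturation factor Pomp (-0.08) were not called. The bound deubiquitinase Usp14 was lower with its brighter probe (-0.40), its second probe was not called, and Uchl5 (-0.02) was not called. Of the enzymes that activate ubiquitin, Uba6 was higher by 0.65 and Uba1 was not called (-0.10), though its dimmer probe was called lower.

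Of the 8 tested regulators of proteasome genes 3 were higher, 1 was lower and 4 were not called, a share of calls near the 57.3% over all tested genes. Nfe2l1 went from -0.71 ± 0.10 to -0.79 ± 0.20 (SD, n = 4) and was not called (limma adjusted p = 0.58), nor was Ddi2, the protease that activates its protein (-0.03). Nfe2l2, which responds to oxidants, was higher by 0.38 (limma adjusted p = 0.00281), but was not called with median scaling (0.24, limma adjusted p = 0.19). Among the small Maf genes, whose proteins pair with both factors, Maff rose by 1.83 and Mafk by 1.03, and Mafg was lower by -0.35 (limma adjusted p = 0.0497), a call it kept in 4 of the 17 settings run for the pathway list and lost with the pairs averaged (limma adjusted p = 0.15). These are transcript levels, and the activity of the factors was not measured. In a list of 9 tested stress genes read beside the proteasome, 6 were higher and 1 was lower, beside 27.8% and 29.5% of all tested genes. The stress factor Ddit3 rose by 5.40, the chaperone of the endoplasmic reticulum Hspa5 by 0.99 and the cytosolic chaperone Hspa1a by 2.5. The 1 gene called lower was the cytosolic co-chaperone Dnajb1, which fell by 0.63.

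**Figure D5:**
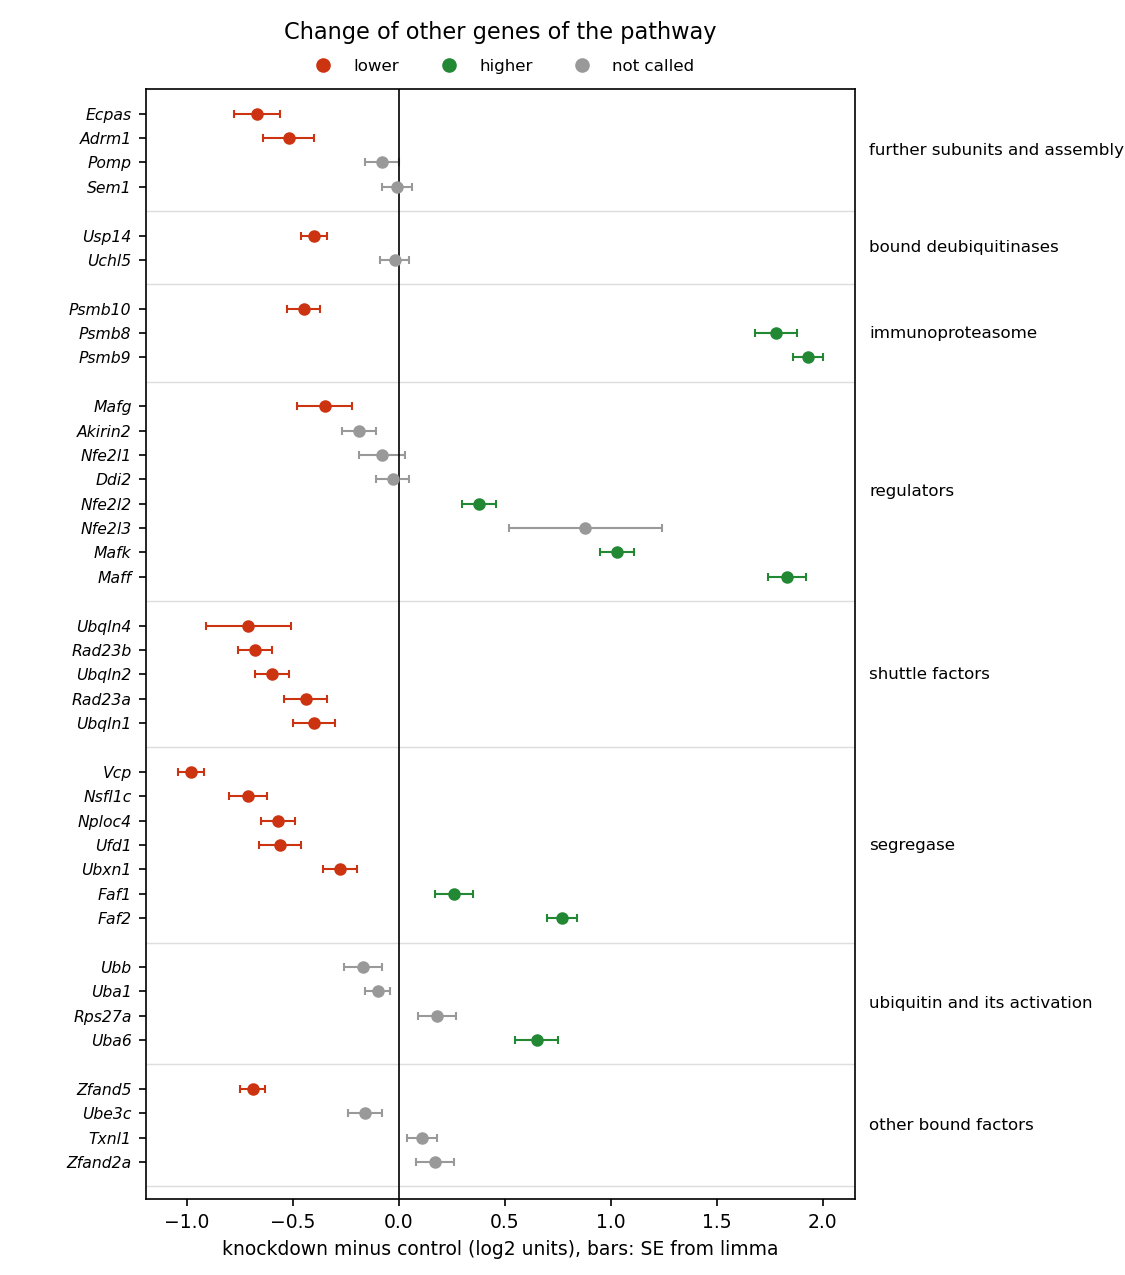
Difference between knockdown and control (log2 units, horizontal axis) of the 37 tested genes of the pathway list with their SE, coloured by the limma call at an adjusted p under 0.05. The 5 shuttle factors lie between -0.71 and -0.4, Vcp lies at -0.98, and Psmb8, Psmb9, Maff and Mafk lie above 1.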

How the data were processed

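The labels give 100 ng of total RNA per sample, amplified from an oligo-dT primer and labelled with Cy3. The deposited intensity of each spot (Agilent design 028005) was made with Feature Extraction 10.7.3.1, which subtracted background and spatial trends, per the file headers. The authors' deposited log2 value table, for which no source used here names the background or normalization steps, served as an alternative. Each of its columns correlated at 0.99998 or more with normexp and quantile normalized intensities.

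Outlier spots were dropped and spots of a probe averaged, and log2 values were set relative to the 75th percentile of their array. A probe was tested if it passed the background test on all 4 arrays of the control or the knockdown group, as 29091 of 55681 did. The test was limma 3.58.1 in R 4.3.3 (two-sided), and p-values were adjusted by Benjamini-Hochberg across these probes. The number of arrays, 8, limits the precision. In simulated data with 200 of 29091 probes changed, 65% of 2-fold changes and 25% of changes of 0.5 on the log2 scale were recovered. Far more probes were called in the data, which loosens the adjusted threshold, so these shares do not describe the power of this comparison. Alternatives covered scaling, background, filter, slide, replicate number, file number, single arrays and the probe that stands for a gene. Probe accessions gave the same current symbol for 57 of 58 probes. Proteins and the exon or UTR position of probes were not analysed here. The members, gene lists and groups were chosen with earlier results of these data known. All members and the called pathway genes may be named, and pathway genes without a call were named after their values were seen. Values on every array are given for the 4 largest rises and falls among called members, members with opposite probe calls, Psmb5, Psmb6, Psmb7, Psmd14 and the ATPases. Fewer than 4 members were called higher, Psmd8 and, by its brighter probe, Psmd10. Some genes of the pathway list are not reported here and are left out of its counts.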

Additional observations from a re-analysis of the deposited data

Results flagged for a closer look

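Of 88 groups of 4 arrays tested over the 44 genes, 6 held an array whose gap to the nearest of the others was over Dixon's critical share of the group's range, and chance alone flags about 1 in 20 groups. Control 3 was that array in 5 of them. It was low for Psma6 (5.89, the other controls between 6.33 and 6.38), Psmb2 (2.16, between 2.97 and 3.11), Psmd10 (1.94, between 2.12 and 2.14) and Psmd11 (3.43, between 4.01 and 4.06), and high for Psmb5 (7.44, between 7.29 and 7.30). For Psma2 it was knockdown 1, at 7.36 with the other knockdown arrays between 7.17 and 7.18.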

How the results depend on the processing

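The counts and medians below follow the settings that moved them. For all members, core and regulatory particle the median differences were -0.44, -0.38 and -0.53 with median scaling, -0.18, -0.16 and -0.26 with quantile normalization, -0.16, -0.10 and -0.25 with the 75th percentile over probes above background on all 8 arrays, -0.19, -0.15 and -0.27 with normexp and quantile normalization, and -0.20, -0.18 and -0.27 with the authors' values. On slide 2 alone all members had a median of -0.35, on slide 1 the regulatory particle had -0.51, and on slide 3 the core had -0.15. The core genes called lower, 8 in the report, numbered 2 with the 75th percentile over bright probes, 5 with normexp, 3 with no filter, 3 on slide 2 alone and 3 with the knockdown pairs averaged. All members lower numbered 16 on slide 2 alone, and 1 member was higher with the mean of all tested probes. The higher count was 3 with quantile normalization, normexp and quantile normalization, the 75th percentile over bright probes and the authors' values, where Psmg4 joined. The cause of these shifts was not tested. Where arrays were dropped or averaged, fewer samples entered the fit.

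Leaving out 1 array at a time gave 22 to 29 members lower, 5 to 9 core genes and 10 to 13 regulatory genes lower, and 2 members higher each time. The core count was 5 without knockdown 2 and 5 without knockdown 3. No alternative reversed a called member. Of the 29 called members 16 kept their call and sign under all 22 alternatives with a test, and they include the 6 ATPases, Psmd6, Psmd8, Psmd5, Psmd9, Psme3 and Psmb5.

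Same-numbered control and knockdown arrays did not deviate together (correlations of 0.11, -0.12, 0.11 and -0.19). Of 8 arrays 0 correlated best with its own number, so the replicate numbers show no pairing. Slides did show shared deviations. The best match of each array in the other group lay on its own slide, at correlations from 0.15 to 0.32. The main fit holds no slide term. With slide as a block all 44 tested members kept their call or their lack of one. With the replicate number as a block 20 members were lower and 2 higher, and 3 core genes were lower.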
